A study of Mus musculus with 16 samples.

Results

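Complement and coagulation factors are 39 genes of the plasma's defence and clotting cascades, chosen by exact gene symbol from a written list. These genes were chosen with earlier results of these data known. They were 39 of the 25803 genes in the joined count tables, and all 39 passed the filter on low counts. Bulk RNA was sequenced from livers of male mice that had eaten a high-fat diet (HFD) for 12 weeks, and the study as titled concerns plasma cholesterol after loss of hepatic Cpt1a. There were 4 groups of 4 libraries each: control mice, called WT in the design text, and mice with a liver knockout of Cpt1a (Cpt1a LKO), each either fasted for 16 h or fasted for 16 h and then refed for 6 h. All 4 groups therefore shared sex, diet and the 16 h fast, and no group was left unfasted. The labels do not say how the knockout was made, which promoter or virus drove a recombinase, or whether the controls received it too, nor do they say that the libraries of a group came from separate animals, so that p-values measure the spread between these libraries. Libraries S40 to S43 are the fasted controls and S48 to S51 the refed controls. The LKO libraries are S44 to S47 in the fasted state and S52 to S55 in the refed state.

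Hepatocytes secrete most of the proteins of both cascades. In the complement system, lectins that bind microbial sugars or antibody-bound C1 activate serine proteases that cleave C4 and C2. Fragments of C4 and C2 form a convertase that cleaves C3. The terminal components then assemble a pore in the target membrane, while regulators hold the cascade back. In coagulation, the contact and tissue factor routes activate factor X and then thrombin, which turns fibrinogen into fibrin. Anticoagulant proteins restrain thrombin, and plasmin dissolves the clot. Several clotting enzymes need carboxylation by a vitamin K-dependent enzyme before secretion.

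Libraries held 14721601 to 24618230 counts. Cpt1a was lower in LKO in both states with no overlap between groups, by 2.27 and 3.07 in mean log2 CPM (counts per 1000000 of the scaled library total) in the fasted and refed states (exact two-sided permutation test, p = 0.0286 in each, the smallest that 4 against 4 libraries allow). The hepatocyte list, of which 7 of 8 genes were matched and none averaged under 1 CPM, summed to between 59480 and 88970 CPM in every library. Over all 16 libraries, the endothelial list summed to between 157 and 254 CPM, the stellate cell or fibroblast list to between 168 and 335, the resident macrophage list to between 186 and 740, and the recruited macrophage and monocyte list to between 83.5 and 175. The corresponding ranges were 219 to 1265 CPM for red blood cells, 11.9 to 34.7 for the 2 matched genes of the pancreas list, 5.08 to 53.6 for cholangiocytes, 2.92 to 14.3 for platelets and megakaryocytes, 4.74 to 10.2 for lymphocytes and 0.154 to 2.24 for neutrophils. In the fasted state the calls among these lists were Ttr (hepatocyte), Car3 (adipocyte), Alas2 (red blood cell) and Cela1 (pancreas), which were lower in LKO, and Cidec (adipocyte) and Dcn (stellate cell or fibroblast, lost without S40, S41, S42, S44, S46 or S47), which were higher. In the refed state Cela1 was lower, and Ly6c2 (monocyte) and Clec4g (endothelial) were higher, both lost without any 1 of 6 of the 8 libraries. On refeeding, the calls were Lipe lower and Lrat and Reln higher in control, and Car3 higher and Cidec, Lipe, Krt19 and Tspan8 lower in LKO. Krt19 and Tspan8, of the cholangiocyte list, were not called by DESeq2 or by limma-voom. By edgeR no gene of the resident macrophage, neutrophil, lymphocyte or platelet lists was called in any comparison. All 8 resident macrophage genes had log2 fold changes below 0 in refed LKO (median −0.996, 5 at an unadjusted p under 0.05), where the list summed to 194 to 292 CPM against 186 to 740 CPM in refed control. All 5 cholangiocyte genes tested had log2 fold changes above 0 in fasted LKO (median 1.23, 2 at an unadjusted p under 0.05), where the list summed to 7.47 to 53.6 CPM against 5.08 to 9.95 CPM in fasted control. The part of these cells in the results was not tested.

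Levels of the 39 genes spanned a wide range. Per kb of gene length and over all 16 libraries, the adhesive glycoprotein vitronectin (Vtn) was the most abundant at 1265 CPM per kb, rank 44 of all genes, followed by the central complement component C3 at 929.8 (rank 55) and the fibrinogen gamma, alpha and beta chains Fgg, Fga and Fgb at 896.8, 785.9 and 670.6. At the other end stood Masp1 at 11.3, the protein S gene Pros1 at 10.8, C2 at 9.51 and complement factor B (Cfb) at 1.51 CPM per kb (rank 8899). Together the 39 genes took 3.44% ± 0.203 of all counts in controls and 2.88% ± 0.256 in LKO after the fast, and 3.19% ± 0.208 in controls and 2.87% ± 0.182 in LKO after refeeding (SD, n = 4). By library the share ran from 3.21% to 3.67% in fasted control and from 2.57% to 3.13% in fasted LKO, ranges that did not overlap. In the refed state it ran from 2.89% to 3.33% in control and from 2.75% to 3.14% in LKO, and those ranges overlapped.

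**Figure D1:**
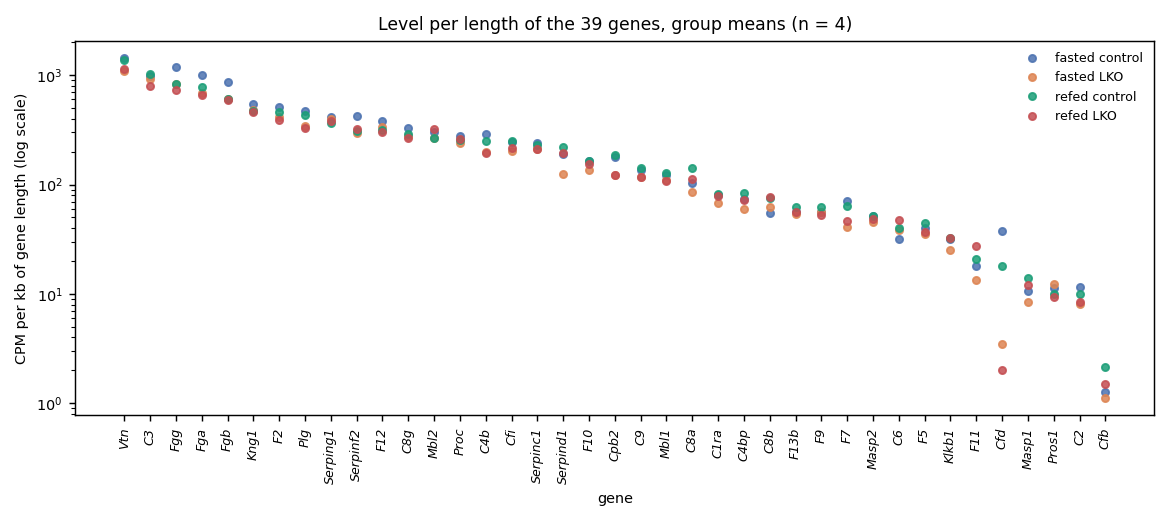
Level of each of the 39 genes as CPM per kb of gene length (log scale), with 1 point per group mean (n = 4) and genes ordered by their mean over all libraries. Vtn stands highest at 1265 and Cfb lowest at 1.51, and the groups of a gene lie close together except for Cfd.

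The first comparison asked how the genotypes differ after the fast. In fasted LKO livers 14 of the 39 genes fell, 0 rose and 25 did not pass (adjusted p under 0.05 by edgeR's quasi-likelihood test, Benjamini-Hochberg method over all genes tested), against 6.48% of all 14488 genes tested that were called lower, 5.75% called higher and 12.2% called in either direction. The 14 were Cfd, F7, Serpind1, Fga, C4b, Cpb2, Fgg, Fgb, Serpinf2, C2, Plg, Vtn, Klkb1 and F2. By role, 10 of the 20 coagulation and fibrinolysis genes and 4 of the 19 complement genes fell. The log2 fold change lay below 0 in 36 of 39 genes, against 47.5% of all genes, and its median was −0.27 against 0.02 over all genes. In 20 of 39 genes every LKO library lay under every control library, against 8.57% of all genes tested, and 0 genes lay higher without overlap, against 8.3%. In bulk liver RNA, fewer cells of a type and less RNA per cell cannot be told apart.

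Abundant genes had a higher background. Among the 1405 genes with a mean of at least 100 CPM, a limit chosen after seeing the data, 18.8% were called lower and 60.9% had a log2 fold change below 0. Of the 39 genes, 34 were this abundant, and 12 of these were called lower. Of the 4 complement genes called lower, C4b and Vtn were this abundant. C2 and Cfd were not, with means of 36.8 and 14.0 CPM over all libraries. The hepatocyte marker list was lower in fasted LKO, both in its sum and in its median log2 fold change of −0.589. Of its 7 genes, 6 had an unadjusted p under 0.05 by edgeR and 1 was called (Ttr). The log2 fold change was below 0 in 5 of them and above 0 in 2 (Apoa1 0.37, Pck1 0.78). The list summed to 70720 to 77180 CPM in fasted control and to 59960 to 68180 CPM in fasted LKO, with no overlap, and to 66410 to 88970 and 59480 to 72620 CPM in refed control and refed LKO. The part of this shift in the result was not tested. Library S44 stood lowest of the fasted LKO libraries, with a median deviation of the 39 genes from their mean over all libraries of −0.25 (log2), and S40 highest of the controls at 0.23. The count of genes that fell was 5 without S44, 6 without S40, 7 without S46 and 8 without S43. It was 8 when only the fasted groups were fitted, and 18 by DESeq2. F7, Serpind1, Plg and Serpinf2 kept their call without any 1 of the 8 libraries.

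**Figure D2:**
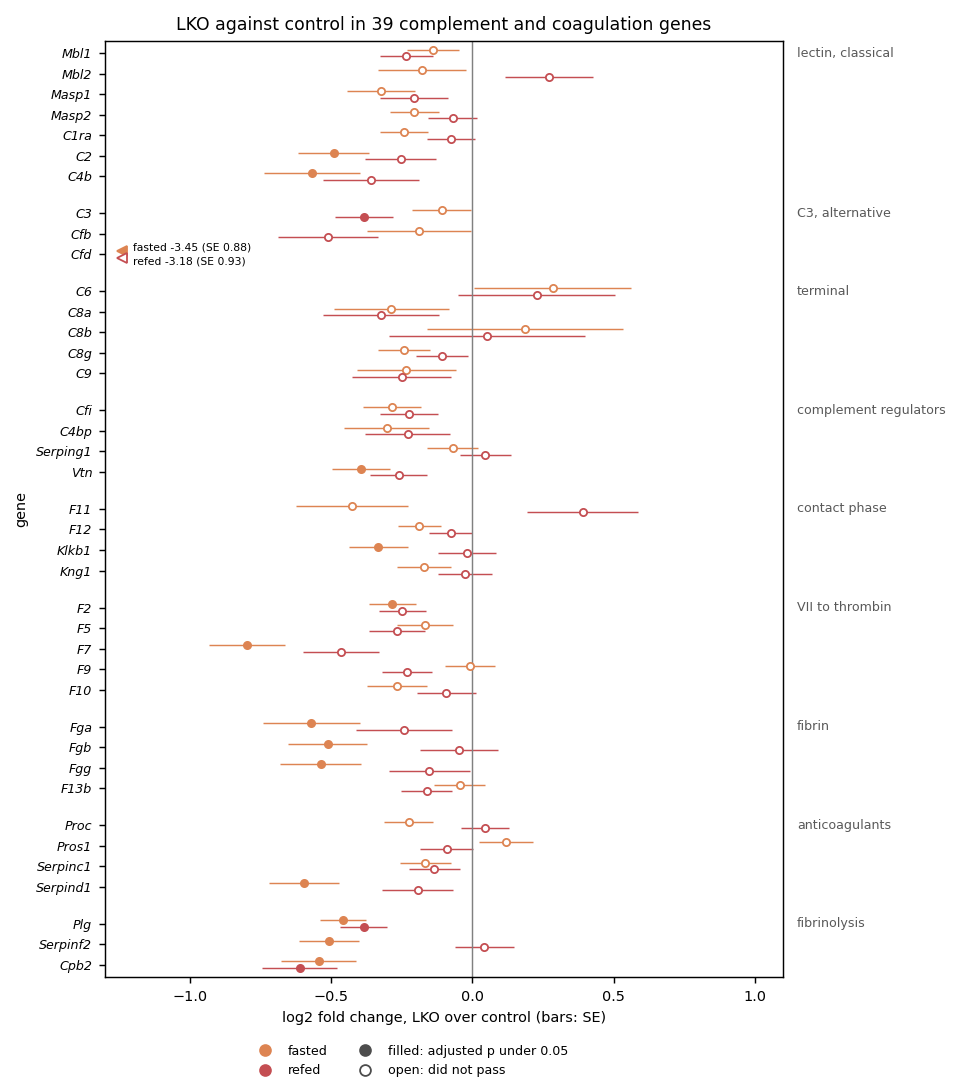
Log2 fold change of LKO over control (horizontal axis, bars SE) for the 39 genes by role in the fasted and refed states, with filled points for an adjusted p under 0.05. Most points lie left of 0, and 14 are filled in the fasted state against 3 in the refed state. Cfd lies beyond the axis and its values are written beside its arrows.

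After refeeding, C3, Plg and Cpb2 fell in LKO, 3 of 39 genes with 0 higher, against 1.35% of all genes called lower, 2.28% called higher and 3.63% called in either direction. All 3 had a mean of at least 100 CPM, and of all genes this abundant 3.63% were called lower. The log2 fold change was below 0 in 32 of 39 genes, against 52.2% of all genes, with a median of −0.19 against −0.01. In 8 of 39 genes every LKO library lay under every control library, against 5.03% of all genes, and 0 genes lay higher without overlap, against 6.7%. DESeq2 called 6 genes, adding Cfd, F7 and F2, while the count was 0 without S48 and 1 without S54 or without S55.

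Whether the LKO effect differed between the states was tested directly, as the effect in refed mice minus that in fasted mice. By edgeR 0 of 39 genes passed, against 0.538% of all genes, with 6 at an unadjusted p under 0.05. limma-voom called 0 of the 39 genes, and DESeq2 called 1 of 39 where it called 442 of all 14488 genes. The difference was below 0 in 12 of 39 genes, against 51.5% of all genes, and its median was 0.12 against −0.01. Among genes with a mean of at least 100 CPM the share below 0 was 38.5%, and 10 of the 34 members this abundant lay below 0. The lean of the 39 genes was thus near that of abundant genes. The gene with the smallest p was Serpinf2, for which the difference was 0.55 (SE 0.15, edgeR adjusted p = 0.0865, DESeq2 adjusted p = 0.0171). So a call in the fasted state alone is not shown to differ from the refed state for any of these genes by edgeR's test.

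Refeeding was then compared with the fast within each genotype. The refed and fasted comparisons of the controls use the same fasted control libraries as the fasted genotype comparison, and those of LKO use the same fasted LKO libraries, so their values are not independent of each other. In controls 2 genes rose (Masp1 and Cfb) and 4 fell (Fgg, Fgb, Serpinf2 and F12), against 7.79% of all genes called higher and 7.65% called lower, and the median log2 fold change was −0.02. In LKO 4 genes rose (F11, Serpind1, Masp1 and Klkb1) and 1 fell (Pros1), against 9.28% called higher and 8.78% called lower, and the median was 0.05. The members' shares of 6 of 39 and 5 of 39 stand beside 15.4% and 18.1% of all genes called in either direction. Among genes with a mean of at least 100 CPM, 22.3% were called in each genotype. Of the 34 members this abundant, 5 were called in control and 3 in LKO. The log2 fold change was below 0 in 21 of 39 genes in control, against 48.9% of all genes, and in 16 in LKO, against 52.1%. Groups did not overlap for 7 lower and 4 higher genes in control, against 10.1% and 10.4% of all genes, and for 1 lower and 4 higher genes in LKO, against 9.95% and 10.6%. Without S43 the control count was 2, and it was 3 without S40, without S48 or without S49.

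**Figure D3:**
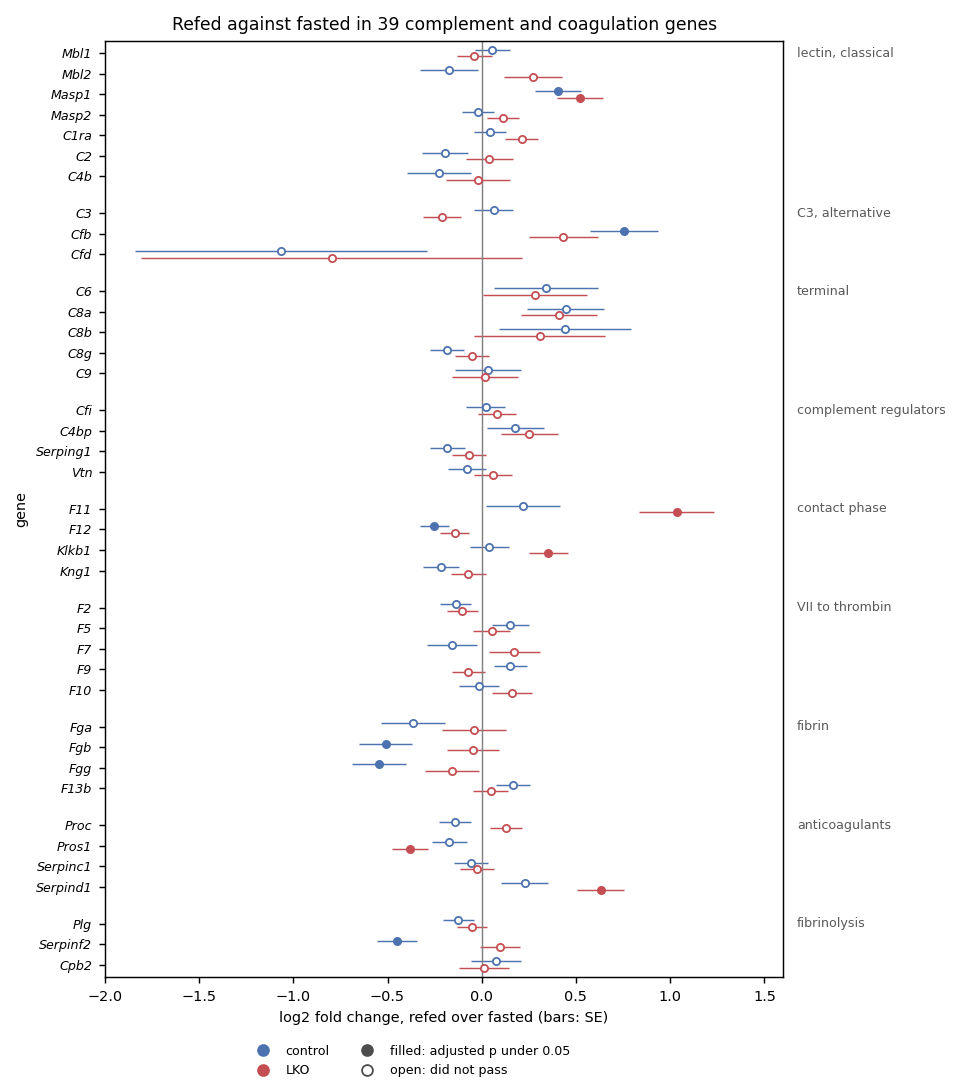
Log2 fold change of refed over fasted (horizontal axis, bars SE) for the 39 genes by role in control and LKO, with filled points for an adjusted p under 0.05. The points scatter on both sides of 0, with Fgb, Fgg and Serpinf2 filled on the left in control only and F11, Serpind1 and Klkb1 filled on the right in LKO only, a difference between genotypes that did not pass edgeR's test.

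Among the 7 genes that start the lectin and classical pathways, 2 fell in fasted LKO, against 6.48% of all genes called lower. In the refed genotype comparison 0 of the 7 were called (1 at an unadjusted p under 0.05, 0 by DESeq2, 0 by limma-voom). C4b, the source of the C4 fragments of the C3 convertase, averaged 1666 CPM in fasted control and 1124 in fasted LKO, a log2 fold change of −0.57 (SE 0.17, edgeR adjusted p = 0.039). C2, which supplies the protease of that convertase, averaged 44.4 and 31.6 CPM, a log2 fold change of −0.49 (SE 0.12, edgeR adjusted p = 0.0168). Refed LKO was at 78.0% of refed control for C4b and 83.9% for C2, and neither passed. The call of C4b was lost without S40, S42, S43, S44 or S46 (highest adjusted p 0.117) and that of C2 without S40 (adjusted p = 0.0552). C4b has the near-identical copy C4a, so reads could be split between them, and C2 overlaps Zbtb12 on the opposite strand, which averaged 3.17 CPM. The 5 other genes of this role, the mannose-binding lectins Mbl1 and Mbl2, their proteases Masp1 and Masp2, and the C1 protease C1ra, had fasted log2 fold changes between −0.32 and −0.14, with edgeR adjusted p from 0.076 to 0.51. DESeq2 called C1ra in fasted LKO (adjusted p = 0.0355). Masp2 overlaps Tardbp (66.5 CPM) on the opposite strand, and C1ra has the near-copy C1rb.

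Masp1 (ENSMUSG00000022887, chr16:23268167-23339565 in mm39), which cleaves zymogens of the lectin pathway, was the gene called on refeeding in both genotypes. It stood at 107, 110, 99.7 and 99.3 CPM in fasted control and at 164, 133, 142 and 112 CPM in refed control. In LKO it stood at 66.2, 103, 80.9 and 82.7 CPM in the fast and at 118, 115, 117 and 127 CPM after refeeding. In each genotype all 4 refed libraries lay above all 4 fasted ones. The rise was 0.40 in log2 (SE 0.12, edgeR adjusted p = 0.0332) in control and 0.52 (SE 0.12, edgeR adjusted p = 0.00709) in LKO. The control call was lost without S40, S42, S43, S48, S49 or S50 (highest adjusted p 0.116), whereas the LKO call held without any 1 library.

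C3 is cleaved in every complement pathway, and factors B (Cfb) and D (Cfd) form the amplifying convertase of the alternative pathway. C3 (ENSMUSG00000024164, chr17:57510970-57535136 in mm39) stood at 5630, 5022, 5232 and 4393 CPM in fasted control and at 4874, 5425, 4318 and 4185 CPM in fasted LKO, ranges that overlapped. After refeeding it stood at 5423, 5014, 5681 and 5073 CPM in control and at 4086, 4027, 3771 and 4356 CPM in LKO, with every LKO library lower. After refeeding C3 fell by 0.38 in log2 (SE 0.10, edgeR adjusted p = 0.0498), and the fasted log2 fold change was −0.11 (SE 0.10, adjusted p = 0.549). The refed call sits at the threshold: it was lost without any 1 of the 8 libraries (adjusted p 0.0595 to 0.128) and under RLE size factors (adjusted p = 0.0523), while the log2 fold change stayed between −0.42 and −0.35.

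Cfb (ENSMUSG00000090231, chr17:35075350-35081494 in mm39) was scarce, at 3.58, 3.39, 3.67 and 3.71 CPM in fasted control and 5.94, 5.47, 6.57 and 6.18 CPM in refed control. Every refed control library lay above every fasted one, a rise of 0.75 in log2 (SE 0.18, edgeR adjusted p = 0.0108) that held without any 1 library. In LKO it stood at 2.15, 4.58, 2.58 and 3.29 CPM in the fast and at 4.40, 3.92, 4.02 and 4.59 CPM after refeeding, and these ranges overlapped (log2 fold change 0.43, SE 0.18, adjusted p = 0.116). Library S45 carried the highest fasted LKO value. Without S45 the adjusted p in LKO was 0.0073.

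Cfd (ENSMUSG00000061780, chr10:79726687-79728489 in mm39), the serine protease adipsin that cleaves factor B and is known as a product of fat cells, varied widely between libraries. It stood at 49.3, 9.75, 20.4 and 58.1 CPM in fasted control and at 0.749, 2.38, 0.336 and 9.51 CPM in fasted LKO. After refeeding it stood at 25.2, 2.34, 6.21 and 32.9 CPM in control and at 2.10, 1.57, 3.28 and 0.520 CPM in LKO. The fasted groups met without overlapping, at 9.75 and 9.51 CPM, and the refed groups overlapped. The fasted fall was 3.45 in log2 (SE 0.88, edgeR adjusted p = 0.0182), and the call was lost without S44 (adjusted p = 0.0595) or without S46 (adjusted p = 0.0513). Library S47 held the highest fasted LKO value, and without it the log2 fold change was −4.91 (adjusted p = 0.00481). After refeeding the log2 fold change reached −3.18 (SE 0.93, adjusted p = 0.0687), called by DESeq2 (adjusted p = 0.0257) and by edgeR without S49 (adjusted p = 0.0401), and not by limma-voom (log2 fold change −2.70, adjusted p = 0.282).

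The adipocyte list was read beside Cfd. All 9 of its genes were matched, and the fat cell-defining Adipoq, Lep, Retn, Plin1 and Adig each averaged under 1 CPM. Adipoq, the adiponectin gene, was at 0 in 11 of 16 libraries and reached 0.447 CPM in S40. The summed list ran from 2072 to 3486 CPM in controls and 590 to 1425 CPM in LKO after the fast, and from 3920 to 5429 CPM and 1616 to 2499 CPM after refeeding. Most of that sum was Car3, a carbonic anhydrase that averaged 2551 CPM in fasted control and 570 in fasted LKO and that fell in fasted LKO by 2.16 in log2 (SE 0.48, edgeR adjusted p = 0.00859). Cidec, a lipid droplet protein, rose by 2.20 (SE 0.50, edgeR adjusted p = 0.00984) in the same comparison. The part of fat cells in the Cfd values was not tested.

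**Figure D4:**
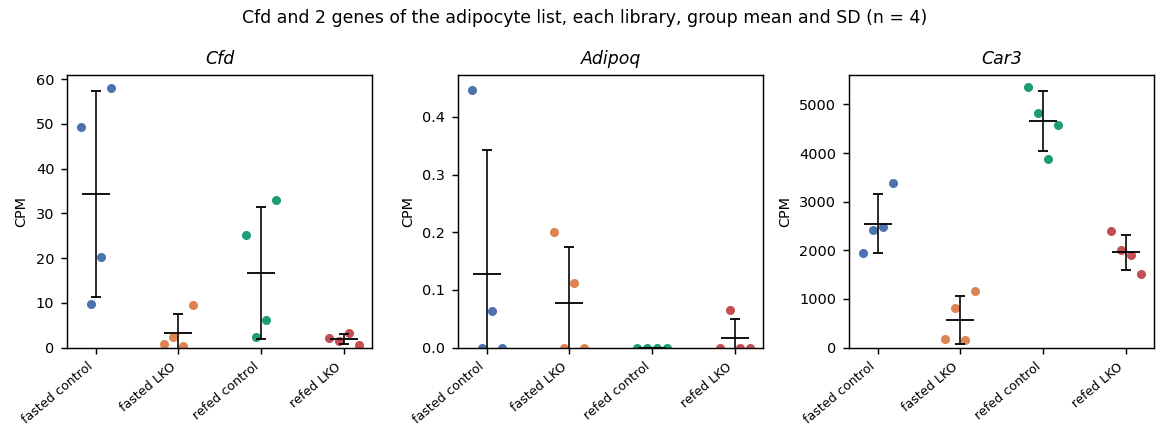
CPM (vertical axis) of Cfd, Adipoq and Car3 in each library (points) by group, with the group mean and SD (n = 4). Cfd runs from 9.75 to 58.1 in fasted control and from 0.336 to 9.51 in fasted LKO, Adipoq stays under 0.45 in every library, and error bars are drawn only above 0.

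The pore-forming components showed no call in any comparison. For C6, C8a, C8b, C8g and C9, 0 of 5 passed in the fasted genotype comparison by edgeR (1 at an unadjusted p under 0.05, 0 by DESeq2, 0 by limma-voom) and 0 of 5 in the refed one (0 at an unadjusted p under 0.05, 0 by DESeq2, 0 by limma-voom). Fasted log2 fold changes ran from −0.29 in C8a to 0.28 in C6. C8b varied widely within groups, from 60.2 to 264 CPM in fasted LKO and from 97.2 to 199 CPM in fasted control. On refeeding, C6, C8a and C8b had log2 fold changes of 0.34, 0.45 and 0.44 in control and 0.28, 0.41 and 0.31 in LKO, none past the threshold (1 of 5 at an unadjusted p under 0.05 in control, 0 in LKO, 0 in either by DESeq2 or limma-voom). C8a was called in control without S49 (adjusted p = 0.0366). C8g overlaps Fbxw5 (62.6 CPM) on the opposite strand over 31.6% of its length.

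Among the 4 complement regulators, edgeR called Vtn, which binds the terminal complex and also stabilises an inhibitor of plasminogen activation. It fell in fasted LKO, from 2932 ± 354 to 2231 ± 212 CPM (SD, n = 4). This was a fall of 0.39 in log2 (SE 0.10, edgeR adjusted p = 0.0186), and the call was lost without S40, S44 or S46 (highest adjusted p 0.0671). In the refed state Vtn was at 83.5% of control with no overlap between groups, which did not pass (adjusted p = 0.172). The C3b-cleaving protease Cfi, the C4b-binding protein C4bp and the C1 inhibitor Serping1 had fasted log2 fold changes of −0.28, −0.30 and −0.07 and did not pass by edgeR (adjusted p from 0.0803 to 0.677). DESeq2 called Cfi (adjusted p = 0.0334), as did edgeR without S47 (adjusted p = 0.0133). In the refed comparison 0 of the 4 regulators passed by edgeR (2 at an unadjusted p under 0.05, 0 by DESeq2, 0 by limma-voom).

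The contact phase genes F11, F12, Klkb1 and Kng1 encode factors XI and XII, prekallikrein and kininogen, which are activated on charged surfaces. F11 (ENSMUSG00000031645, chr8:45694211-45715068 in mm39), which activates factor IX, stood at 38.7, 49.03, 36.1 and 36.4 CPM in fasted control and at 20.9, 41.4, 30.8 and 26.4 CPM in fasted LKO, and these ranges overlapped. After refeeding it stood at 59.5, 37.2, 44.8 and 45.4 CPM in control and at 49.1, 63.8, 51.97 and 79.7 CPM in LKO. Refed LKO libraries thus all lay above fasted LKO libraries. F11 rose on refeeding in LKO by 1.03 in log2 (SE 0.20, edgeR adjusted p = 0.00205), to 205% of the fasted level, a call that held without any 1 library. In control the same comparison gave 0.22 (SE 0.20, adjusted p = 0.487). The difference between genotypes, 0.81 (SE 0.28), did not pass (adjusted p = 0.157).

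Klkb1 (ENSMUSG00000109764, chr8:45719726-45747896 in mm39) lies beside F11 on chromosome 8 (45694211 to 45747896 for the pair in mm39). Its libraries held 157, 180, 163 and 166 CPM in fasted control, 118, 144, 148 and 119 CPM in fasted LKO, 183, 158, 186 and 158 CPM in refed control and 169, 190, 142 and 175 CPM in refed LKO. Fasted LKO stood under fasted control in every library, whereas its ranges overlapped those of refed LKO. Klkb1 fell in fasted LKO by 0.33 in log2 (SE 0.10, edgeR adjusted p = 0.0473) and rose on refeeding in LKO by 0.35 (SE 0.10, edgeR adjusted p = 0.027). Both calls use the same fasted LKO libraries. The first was lost without S40, S41, S42, S43, S44 or S47 (highest adjusted p 0.139) and the second without S44, S47, S52, S53 or S55 (highest adjusted p 0.086).

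F12 (ENSMUSG00000021492, chr13:55565771-55574606 in mm39), whose product activates prekallikrein, stood at 775, 702, 727 and 764 CPM in fasted control and at 639, 621, 603 and 628 CPM in refed control, with no overlap. It fell on refeeding in control by 0.25 in log2 (SE 0.08, edgeR adjusted p = 0.0346), and the call was lost without S40, S42, S43, S48, S49, S50 or S51 (highest adjusted p 0.10). In LKO it stood at 596, 649, 704 and 659 CPM in the fast and at 568, 651, 574 and 567 CPM after refeeding, ranges that overlapped. Kng1, the source of bradykinin and near-copy of Kng2, averaged 1772 CPM in fasted control and 1574 in fasted LKO and was not called in any comparison.

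F7 had the largest fall after Cfd. Factor VII binds tissue factor and starts the extrinsic pathway. F7 (ENSMUSG00000031443, chr8:13076034-13085809 in mm39) stood at 157, 122, 126 and 124 CPM in fasted control and at 57.4, 97.2, 78.1 and 72.04 CPM in fasted LKO. After refeeding it stood at 127, 133, 106 and 108 CPM in control and at 87.4, 93.7, 78.4 and 83.8 CPM in LKO. In both states every LKO library lay under every control library. The fasted fall was 0.80 in log2 (SE 0.13, edgeR adjusted p = 0.00156), to 57.6% of control, and it held without any 1 library. The refed log2 fold change of −0.47 (SE 0.13) missed the threshold (edgeR adjusted p = 0.0644), and DESeq2 called it (adjusted p = 0.0287).

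F2 (ENSMUSG00000027249, chr2:91455665-91466759 in mm39) encodes prothrombin, the zymogen of thrombin. It stood at 2489, 2309, 2164 and 2391 CPM in fasted control, at 1733, 2137, 1831 and 1988 CPM in fasted LKO, at 2214, 2112, 2027 and 2144 CPM in refed control and at 1747, 1853, 1758 and 1794 CPM in refed LKO. In both states every LKO library lay under every control library. The fasted fall was 0.28 in log2 (SE 0.08, edgeR adjusted p = 0.0341), lost without S40, S41, S43, S44 or S46 (highest adjusted p 0.0979). In the refed state it was at 84.2% of control (edgeR adjusted p = 0.107, DESeq2 adjusted p = 0.0194). F10, next to F7 on chromosome 8, F5 and F9 had fasted log2 fold changes of −0.27, −0.17 and −0.01 (adjusted p from 0.11 to 0.968). These encode the protease that forms thrombin, its cofactor factor V, and factor IX, which activates factor X.

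Fibrinogen is a hexamer of paired alpha, beta and gamma chains whose genes lie within 42 kb on chromosome 3 (82915031 to 82957170 in mm39). The promoters of the 3 fibrinogen genes and of Serpinf2, the antiplasmin gene, are shown because Fgg, Fgb and Serpinf2 were the genes that fell both in fasted LKO and on refeeding in control, and Fga encodes the remaining chain. They are RefSeq sequences of build GRCm38.p6, 250 bases before to 50 bases after the annotated start, 5′ to 3′ on the gene's strand, at chr3:83007474-83007773 (Fgg, plus strand), chr3:83025903-83026202 (Fga, plus), chr3:83049814-83050113 (Fgb, minus) and chr11:75439452-75439751 (Serpinf2, minus). Capitals mark matches, on either strand, to GTTAAT (part of an HNF1 site), TTGCNNAA (C/EBP), TTCNNNGAA (STAT), CTGGGAA (interleukin-6 response), CAAAGT (HNF4 part), AGGTCA (part of a nuclear receptor site) or CACGTG (E-box).
Fgg: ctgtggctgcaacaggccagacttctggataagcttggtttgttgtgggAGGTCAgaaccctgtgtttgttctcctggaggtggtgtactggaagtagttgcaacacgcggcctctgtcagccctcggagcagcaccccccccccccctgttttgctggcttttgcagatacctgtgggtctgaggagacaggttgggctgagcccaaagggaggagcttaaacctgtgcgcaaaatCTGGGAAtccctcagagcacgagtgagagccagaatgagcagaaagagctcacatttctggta
Fga: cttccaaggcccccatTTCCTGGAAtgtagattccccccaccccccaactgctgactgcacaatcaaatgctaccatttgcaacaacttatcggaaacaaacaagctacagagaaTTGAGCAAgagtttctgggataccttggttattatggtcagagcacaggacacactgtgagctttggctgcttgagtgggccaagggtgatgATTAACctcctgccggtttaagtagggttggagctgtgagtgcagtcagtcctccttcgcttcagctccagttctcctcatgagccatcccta
Fgb: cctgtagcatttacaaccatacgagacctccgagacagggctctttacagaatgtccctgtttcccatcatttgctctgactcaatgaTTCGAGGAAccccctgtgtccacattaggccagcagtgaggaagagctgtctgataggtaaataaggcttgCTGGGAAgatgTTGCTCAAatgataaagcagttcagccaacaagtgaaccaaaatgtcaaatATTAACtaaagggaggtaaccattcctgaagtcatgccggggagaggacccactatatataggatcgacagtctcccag
Serpinf2: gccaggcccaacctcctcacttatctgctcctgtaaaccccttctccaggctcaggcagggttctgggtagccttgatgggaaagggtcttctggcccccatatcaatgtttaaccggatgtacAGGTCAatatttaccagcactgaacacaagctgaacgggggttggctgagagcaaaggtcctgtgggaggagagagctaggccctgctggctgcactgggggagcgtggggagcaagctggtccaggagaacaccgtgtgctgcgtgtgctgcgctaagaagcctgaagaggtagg
The Fga window holds a GTTAAT, a TTGCNNAA and a TTCNNNGAA match, and the Fgb window holds these and CTGGGAA, a motif that can overlap TTCNNNGAA. The Fgg window holds CTGGGAA and AGGTCA, and the Serpinf2 window AGGTCA alone. A promoter was listed for 30 of the 39 genes, 31 windows in all. Among these, GTTAAT was in 9 of 31 against 7.1% of all 32851 windows, TTGCNNAA in 10 against 10.8%, TTCNNNGAA in 8 against 8.3%, CTGGGAA in 7 against 11.1%, CAAAGT in 6 against 14.4%, AGGTCA in 12 against 16.3% and CACGTG in 0 against 7.15%. A match describes letters in these windows and is not a binding site.

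Levels of the 3 chains were highest in fasted control. Fga (ENSMUSG00000028001, chr3:82933383-82940934 in mm39) stood at 3003, 2648, 3281 and 3258 CPM in fasted control, at 1580, 2325, 1678 and 2631 CPM in fasted LKO, at 2240, 1830, 2489 and 2894 CPM in refed control and at 1819, 1823, 1901 and 2446 CPM in refed LKO. Fgb (ENSMUSG00000033831, chr3:82947448-82957170 in mm39) stood at 3466, 2709, 3451 and 3632 CPM in fasted control, at 2139, 2559, 1894 and 2704 CPM in fasted LKO, at 2223, 1930, 2452 and 2707 CPM in refed control and at 2116, 2200, 2041 and 2655 CPM in refed LKO. Fgg (ENSMUSG00000033860, chr3:82915031-82922356 in mm39) stood at 2550, 2044, 2628 and 2811 CPM in fasted control, at 1567, 1905, 1410 and 2034 CPM in fasted LKO, at 1669, 1427, 1772 and 2020 CPM in refed control and at 1464, 1444, 1416 and 1871 CPM in refed LKO. In each chain all 4 fasted control libraries lay above all 4 fasted LKO libraries, though S41 and the highest LKO library nearly met, as at 2709 and 2704 CPM for Fgb.

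In fasted LKO the chains fell together, by 0.57 in Fga (SE 0.17, edgeR adjusted p = 0.0373), 0.51 in Fgb (SE 0.14, adjusted p = 0.0236) and 0.54 in Fgg (SE 0.14, adjusted p = 0.0219), on the log2 scale. On refeeding in control Fgb fell by 0.51 (SE 0.14, edgeR adjusted p = 0.0208) and Fgg by 0.54 (SE 0.14, adjusted p = 0.0179), while Fga had a log2 fold change of −0.37 (SE 0.17, adjusted p = 0.156). Both comparisons rest on the same fasted control libraries. In refed mice the genotypes overlapped in all 3 chains, and log2 fold changes ran from −0.24 to −0.05. The fasted calls of all 3 were lost without S40, S42, S43, S44 or S46 (highest adjusted p 0.116 in Fga, 0.076 in Fgb and 0.0716 in Fgg). The refeeding calls were lost without S40, S43, S48 or S49 in Fgb (highest adjusted p 0.0622) and without S43 or S49 in Fgg (highest adjusted p 0.0577). F13b, which carries the fibrin cross-linking enzyme in plasma, averaged 141 CPM in fasted control and 136 in fasted LKO and was not called in any comparison.

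**Figure D5:**
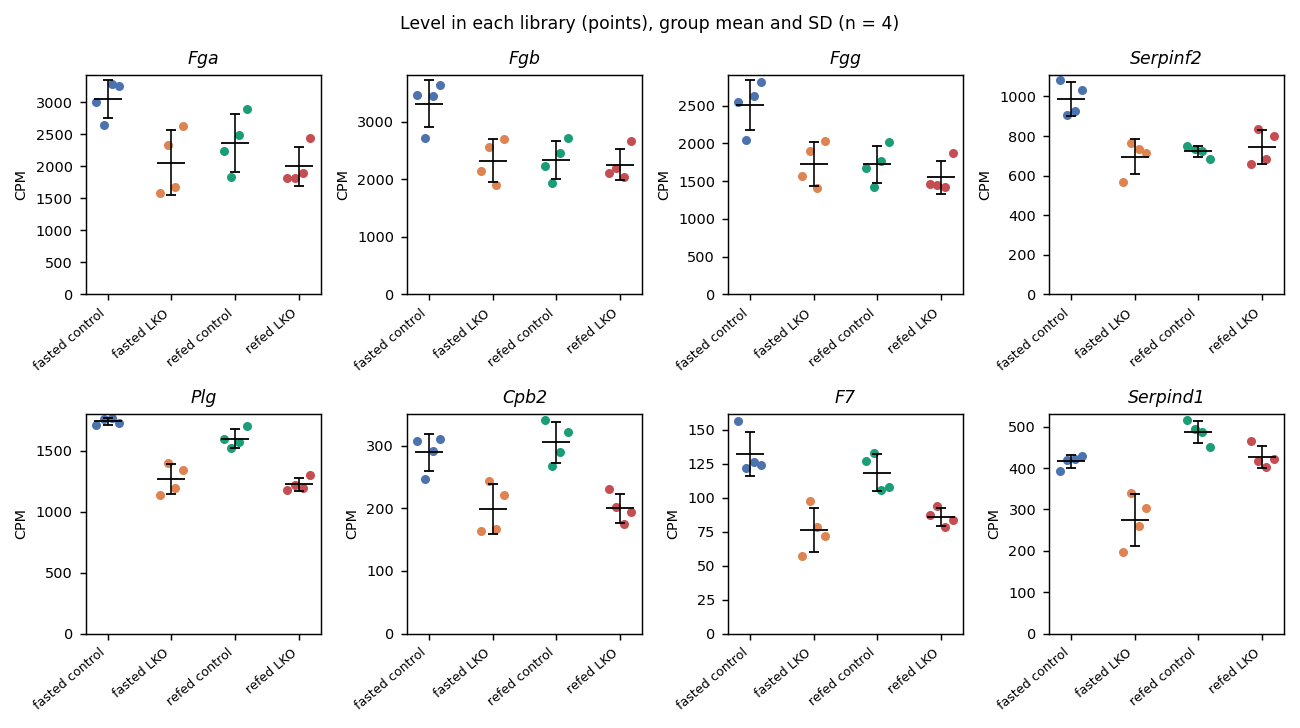
CPM (vertical axis, from 0) of 8 genes in each library (points) by group, with the group mean and SD (n = 4). Fga, Fgb, Fgg and Serpinf2 are highest in fasted control, Plg, Cpb2 and F7 are lower in LKO in both states, and Serpind1 is lowest in fasted LKO, where S44 stands at 196 CPM.

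Among the 4 anticoagulants, Serpind1 fell in fasted LKO and Pros1 on refeeding in LKO. Serpind1 (ENSMUSG00000022766, chr16:17149235-17161439 in mm39), heparin cofactor II, which inhibits thrombin, stood at 394, 419, 421 and 429 CPM in fasted control and at 196, 341, 260 and 304 CPM in fasted LKO. After refeeding it stood at 515, 495, 488 and 451 CPM in control and at 465, 418, 402 and 421 CPM in LKO. Fasted LKO thus lay under the other 3 groups in every library. Serpind1 fell in fasted LKO by 0.60 in log2 (SE 0.12, edgeR adjusted p = 0.00579) and rose on refeeding in LKO by 0.63 (SE 0.12, edgeR adjusted p = 0.00248), and both calls held without any 1 library. The whole of Serpind1 lies inside Pi4ka on the opposite strand, and Pi4ka stood at 31.7 to 41.6 CPM in fasted control and 35.9 to 44.95 CPM in fasted LKO. The use of strand in the counting is not given in the sources used here, so reads of that pair may not be separated.

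Pros1 (ENSMUSG00000022912, chr16:62674670-62749709 in mm39), the protein S cofactor of activated protein C, stood at 49.5, 40.7, 48.3 and 46.1 CPM in fasted control, at 44.4, 46.5, 56.2 and 53.5 CPM in fasted LKO, at 40.1, 35.4, 42.95 and 45.6 CPM in refed control and at 37.3, 37.3, 40.2 and 39.2 CPM in refed LKO. All refed LKO libraries lay under all fasted LKO libraries. It fell on refeeding in LKO by 0.38 in log2 (SE 0.09, edgeR adjusted p = 0.0101), without loss when any 1 library was left out, and in control the same comparison gave −0.17 (SE 0.09, adjusted p = 0.236). Antithrombin (Serpinc1) and protein C (Proc) were at 89.1% and 85.6% of control in fasted LKO and at 91.1% and 103% in refed LKO. Neither was called in any comparison by edgeR, and DESeq2 called Proc in the fasted state (adjusted p = 0.0457).

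All 3 genes of fibrinolysis fell in fasted LKO, against 6.48% of all genes called lower and 18.8% of genes with a mean of at least 100 CPM. Plg (ENSMUSG00000059481, chr17:12597495-12638272 in mm39) encodes plasminogen, the zymogen of plasmin. It stood at 1713, 1761, 1772 and 1725 CPM in fasted control and at 1136, 1400, 1197 and 1346 CPM in fasted LKO, and at 1598, 1523, 1569 and 1708 CPM in refed control and 1180, 1219, 1198 and 1302 CPM in refed LKO. In both states LKO libraries lay under all control libraries. The fall was 0.46 in log2 (SE 0.08, edgeR adjusted p = 0.00215) in the fasted and 0.39 (SE 0.08, edgeR adjusted p = 0.0166) in the refed state. The fasted call held without any 1 library, whereas leaving out S48 ended the refed call (adjusted p = 0.0512).

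Cpb2 (ENSMUSG00000021999, chr14:75479727-75520995 in mm39) encodes a carboxypeptidase that protects fibrin from plasmin. It stood at 308, 247, 291 and 311 CPM in fasted control and at 163, 243, 167 and 221 CPM in fasted LKO, and at 342, 267, 291 and 322 CPM in refed control and 230, 202, 175 and 193 CPM in refed LKO. The fasted groups came close, at 247 CPM in S41 and 243 CPM in S45, without overlapping, and the refed groups were well apart. The fall was 0.54 in log2 (SE 0.13, edgeR adjusted p = 0.0144) in the fasted and 0.61 (SE 0.13, edgeR adjusted p = 0.0196) in the refed state. The fasted call was lost without S44 (adjusted p = 0.0519) and the refed call without S48, S54 or S55 (highest adjusted p 0.0697).

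Serpinf2 (ENSMUSG00000038224, chr11:75322558-75330417 in mm39), alpha-2-antiplasmin, is the main plasmin inhibitor. It stood at 1085, 908, 924 and 1035 CPM in fasted control and at 568, 767, 733 and 714 CPM in fasted LKO, and at 748, 736, 722 and 682 CPM in refed control and 660, 833, 683 and 800 CPM in refed LKO. Fasted control thus lay above the other 3 groups in every library, as the plot of 8 genes by library shows. It fell in fasted LKO by 0.51 in log2 (SE 0.11, edgeR adjusted p = 0.00576) and on refeeding in control by 0.45 (SE 0.11, edgeR adjusted p = 0.01), and both calls, which share the fasted controls, held without any 1 library. In refed mice the genotypes differed by 0.04 (LKO over control, SE 0.11, adjusted p = 0.876).

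The genes lie mostly apart in the genome. Within 1 Mb of each other were Kng1 and Masp1 on chromosome 16, C4b, Cfb and C2 on chromosome 17 (34947354 to 35117241), the fibrinogen genes, C8b and C8a on chromosome 4, F7 and F10, and F11 and Klkb1 on chromosome 8. Neighbours did not always share a call: in fasted LKO, F7 fell to 57.6% of control while F10 was at 83.1%, and C2 and C4b fell while Cfb, between them, was at 87.7%. Whether neighbours differed from each other was not tested. Of the 6 vitamin K-dependent genes (F2, F7, F9, F10, Proc and Pros1), 2 fell in fasted LKO, against 6.48% of all genes called lower. The share was 18.8% among genes with a mean of at least 100 CPM, which these are except Pros1. In refed LKO 0 of the 6 were called by edgeR (3 at an unadjusted p under 0.05, 2 by DESeq2, 0 by limma-voom).

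Other genes of the same cascades came from a fixed list. Of 66 further listed genes, 64 were matched and 57 tested. In fasted LKO 5 fell and 1 rose, in refed LKO 1 fell, on refeeding in control 3 rose, and on refeeding in LKO 7 rose. Beside these counts of 57 stand 12.2%, 3.63%, 15.4% and 18.1% of all genes called in either direction, shares that the counts in either direction did not exceed. By direction, 6.48% of all genes were called lower in fasted LKO and 1.35% in refed LKO. On refeeding, 7.79% were called higher in control and 9.28% in LKO. The counts by direction lay near these shares, and the fall in refed LKO was 1 gene. They were not tested against these shares. Among the other 13 complement components tested, C4a fell in fasted LKO by 1.80 in log2 (SE 0.44, edgeR adjusted p = 0.0136) and rose on refeeding in LKO by 2.06 (SE 0.44, adjusted p = 0.00406), with the reservation about its near-copy C4b. It averaged 74.3 CPM in fasted control, 21.3 in fasted LKO and 89.0 in refed LKO. Colec12, a scavenger receptor, rose on refeeding in LKO by 0.46 (adjusted p = 0.0479), a call lost without S44, S46, S52, S53, S54 or S55. Of the 15 complement regulators and receptors tested, 0 passed in fasted LKO by edgeR (3 at an unadjusted p under 0.05, 0 by DESeq2, 0 by limma-voom), and 0 passed in refed LKO (3 at an unadjusted p under 0.05, 1 by DESeq2, 0 by limma-voom).

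Among 16 other coagulation and anticoagulant genes tested, Proz (protein Z), Hrg (histidine-rich glycoprotein) and Habp2 (a factor VII-activating protease) fell in fasted LKO, by 0.66, 0.60 and 0.38 in log2, with edgeR adjusted p of 0.0176, 0.00331 and 0.00365. Hrg was the most abundant of these, at 1243 CPM in fasted control and 822 in fasted LKO. On refeeding in LKO, Proz, Serpina10 (the protein Z-dependent inhibitor) and Habp2 rose by 0.58, 0.47 and 0.41 (adjusted p = 0.0254, 0.00903 and 0.00117). Habp2 was named after its values were seen, and the Proz rise was lost without S46, S53 or S55. Of 6 other fibrinolysis genes tested, 0 passed in either genotype comparison by edgeR (0 at an unadjusted p under 0.05, 0 by DESeq2, 0 by limma-voom in each).

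The carboxylation and export machinery was read because it acts on several of the proteins. Ggcx, the gamma-glutamyl carboxylase, fell in fasted LKO by 0.53 in log2 (SE 0.12, edgeR adjusted p = 0.0106) and in refed LKO by 0.46 (SE 0.12, adjusted p = 0.0468), the latter lost without S48, S49, S50, S51, S53, S54 or S55. It rose on refeeding in control by 0.41 (adjusted p = 0.0308, lost without S40, S42, S48, S49 or S50) and in LKO by 0.48 (adjusted p = 0.012). Group means in the fast were 43.03 CPM in control and 29.8 CPM in LKO, and after refeeding 57.2 CPM in control and 41.6 CPM in LKO. Vkorc1l1, a vitamin K epoxide reductase, rose in fasted LKO by 0.40 (adjusted p = 0.0275), lost without S40, S43, S44 or S46. Lman1 and Mcfd2 encode the cargo receptor that carries factors V and VIII out of the endoplasmic reticulum. Lman1 rose on refeeding in control by 0.80 (SE 0.10, edgeR adjusted p = 3.8e-04) and in LKO by 0.74 (SE 0.10, adjusted p = 2.3e-04), and Mcfd2 rose in control by 0.45 (adjusted p = 0.00294).

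Other lists place the 39 genes among liver genes of related kinds. Of 15 other secreted hepatocyte proteins tested, 5 fell in fasted LKO, against 6.48% of all genes called lower. Among genes with a mean of at least 100 CPM, 18.8% were called lower. The log2 fold change was below 0 in 13 of the 15, with a median of −0.227 beside −0.267 for the 39 genes. Serpina6 (the corticosteroid-binding globulin) fell by 1.23 in log2 (SE 0.19, edgeR adjusted p = 8.0e-04) and Ttr (transthyretin) by 0.59 (SE 0.15, adjusted p = 0.0181). Named after their values were seen, Ahsg, Fetub and Ambp fell by 0.50, 0.45 and 0.43. Serpina6 rose on refeeding in LKO by 1.64 (adjusted p = 5.4e-05), and its difference between states, 1.35 (SE 0.26), was called (edgeR adjusted p = 0.0337) but lost without any 1 of 13 of the 16 libraries. The Ttr call was lost without S44 or S46 and that of Fetub without S40, S44 or S47. In this list 0 passed in refed LKO by edgeR (5 at an unadjusted p under 0.05, 2 by DESeq2, 0 by limma-voom).

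Of 18 acute phase proteins, whose genes respond to inflammatory cytokines, 2 fell in fasted LKO and 0 rose. Over all genes 6.48% were called lower and 12.2% in either direction. The falls were in Saa4, by 1.79 in log2 (SE 0.30, edgeR adjusted p = 0.00137), and Steap4, by 1.01 (SE 0.23, adjusted p = 0.00989). Both rose on refeeding in LKO, by 1.30 and 1.22 (adjusted p = 0.00568 and 0.00178). Lbp and Socs3 fell on refeeding in control, by 0.95 and 1.17, and in LKO, by 1.04 and 1.003, the last call being lost without S44, S47, S52 or S54. In refed LKO 0 of 18 passed by edgeR (7 at an unadjusted p under 0.05, 2 by DESeq2, 0 by limma-voom).

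Of 18 transcription factors and receptors of hepatocyte secretory genes, 2 were called in fasted LKO, near the 12.2% of all genes called in either direction. At an unadjusted p under 0.05 by edgeR there were 9 of the 18, against 3868 of all 14488 genes. The log2 fold change was below 0 in 13 of the 18, with a median of −0.33. Cebpb fell in fasted LKO by 0.76 in log2 (SE 0.24, edgeR adjusted p = 0.0481) with groups that overlapped and a call lost without S40, S41, S42, S44, S45 or S47, and Il6st, a subunit of the interleukin-6 receptor, rose by 0.34 (adjusted p = 0.0409), lost without any library but S45. Cebpb also fell on refeeding in control, by 0.86 (adjusted p = 0.0228, lost without S41, S42, S48 or S50), as did Dbp by 1.76 (adjusted p = 0.0267, lost without S40, S48 or S49) and, named after their values were seen, Stat3 by 0.44 (lost without S41, S42, S48, S50 or S51) and Cebpa by 0.36 (lost without S40, S43, S48, S49 or S50). On refeeding in LKO Il6st fell by 0.34 (adjusted p = 0.0277), a call lost without S44, S46, S47, S52 or S53. In refed LKO 0 of 18 passed by edgeR (1 at an unadjusted p under 0.05, 1 by DESeq2, 0 by limma-voom). Cebpb averaged 379 CPM in fasted control, 224 CPM in fasted LKO and 209 CPM in refed control. Its part in the levels of the fibrinogen genes was not tested.

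In the authors' deposited tables, 17, 7, 8 and 5 of the 39 genes had an adjusted p-value under 0.05 in the fasted genotype, refed genotype, control refeeding and LKO refeeding comparisons. The 14, 3, 6 and 5 genes called here were all among them, with the same direction.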

How the data were processed

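The 39 genes and all lists were chosen with earlier results of these data known. Poly(A) RNA was selected with oligo-dT beads, primed with random hexamers and made into dUTP libraries, per the labels' protocols. Reads were aligned with HISAT2 2.0.5 to mm39, per the submitters' processing notes. The counting tool, the annotation and the use of strand are not given in the sources used here. In 1 table per comparison the authors deposited unnormalized counts for each gene, gene lengths in bases, and their own log2 fold changes and p-values. Tables were joined to 25803 genes, and counts of the same library differed in 0 cases between tables. A gene absent from a library's tables was set to 0, which applied to 3148 genes, none of them tested. Another 64 columns holding values by library were left out. Library columns match no sample title, so each was placed in its group by the headings of the tables that share it, and carries no replicate number.

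Counts were scaled by TMM factors (0.941 to 1.07), kept by filterByExpr (14488 genes) and tested by edgeR 4.0.16 quasi-likelihood tests in R 4.3.3 over all 4 groups, with Benjamini-Hochberg adjustment over all genes. The SE is the log2 fold change divided by the square root of F. CPM divides counts by the TMM-scaled total. Values in every library are given for members among the 4 largest called rises or the 4 largest called falls of a comparison, and for Cfd, C3, F2 and Fga regardless. Of the other lists, the called genes with the 2 largest changes per direction and comparison are named. DESeq2 1.42.0, limma-voom 3.58.1, other scalings and filters, fits of only the groups compared and leaving out each library were the alternatives. The fits were tested on simulated data.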

Additional observations from a re-analysis of the deposited data

Results flagged for a closer look

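In 7 of 156 groups of 4 libraries, 1 library lay far from the other 3 by Dixon's test at the 95% level, which chance flags in about 1 in 20 groups. Mbl1 was at 177 CPM in S43 of fasted control, against 194.3 to 197.5 in the others. F7 was at 156.7 CPM in S40 of the same group, against 122.1 to 126.3, and F10, its neighbour, at 506.5 CPM in S40, against 428.2 to 432.7. Vtn was at 2545 CPM in S45 of fasted LKO, against 2081 to 2150. In refed LKO, F12 was at 650.7 CPM in S53, against 567.4 to 574.3. In the same group S55 held 2446 CPM of Fga, against 1819 to 1901, and 1871 CPM of Fgg, against 1416 to 1464.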

How the results depend on the processing

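No paired analysis was possible because the library columns carry no replicate numbers. The fasted count of 14 genes was 18 by DESeq2, which added C1ra, Cfi, Proc and F12 (DESeq2 adjusted p = 0.0435 for F12). It was 12 with no filter on low counts and 8 when only the fasted groups were fitted, and leaving out 1 library gave 5 to 16. The refed count of 3 was 6 by DESeq2 and 0 to 3 with 1 library left out. Refeeding counts were 2 to 6 in control and 4 to 6 in LKO with 1 library left out. The difference of LKO effects gave 1 by DESeq2. The cause was not tested. The share of all counts was 2.51%, 2.07%, 2.30% and 2.08% per base of length, and 2.35%, 1.94%, 2.15% and 1.98% without the 3 genes with the most counts (C3, Vtn and Fgb), in fasted control, fasted LKO, refed control and refed LKO. No called value reversed its direction. The control refeeding median of −0.02 was 0.01 without S40, and some values that were not called changed sign with 1 library left out, such as C8b in fasted LKO (0.19, lowest −0.17) and Cfd on refeeding in LKO (−0.80, highest 0.66). Over all genes, DESeq2 called 924 against 526 in the refed comparison and 442 against 78 for the difference, for which a filter at 5 CPM gave 197. Upper quartile scaling split the fasted calls of all genes into 994 higher and 861 lower, against 833 and 939, with 14 of the 39 genes still lower. The Cpt1a difference on unscaled totals was −2.21 and −3.03. Libraries held at least 14721601 counts, and what depth limits was not tested by thinning them.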
